A study of Mus musculus with 12 samples.

Results

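ON bipolar cells answer light with a cascade that starts at the metabotropic glutamate receptor mGluR6, and the 10 genes described here are its receptor, channel, G protein, regulators and companions: Grm6, Trpm1, Gpr179, Nyx, Lrit3, Gnao1, Rgs7, Rgs11, Pcp2 and Prkca. They were taken by symbol from a list of names, with no threshold on their values. All 10 were found among the 55866 symbols of the scaled count table and in the table of TPM, a length-scaled share of all transcripts, and each was read in all 12 libraries. The retinas came from mice 2 months old that were either Abca4-/- (Abca4Ko, the knockout of the photoreceptor transporter behind Stargardt disease) or Abca4+/+ littermate controls. Both genotypes carried RiboTag, a ribosomal protein that gains an epitope tag where Cre is active, and i75-Rod-Cre, a Cre line that uses the rhodopsin promoter to act in rods. From each genotype there were 3 libraries of total retinal lysate (retina) and 3 of the messages pulled down with tagged ribosomes (rod TRAP, translating ribosome affinity purification), which makes 4 groups of 3. The labels do not say which libraries share an animal or what sex the animals were, so p-values measure the spread between these libraries.

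In the dark, rods release glutamate onto mGluR6 at the dendrite tips of rod bipolar cells, and the receptor acts through the G protein Go to keep the cation channel TRPM1 shut. When light stops the release, RGS proteins shorten the life of active Go, TRPM1 opens and the cell depolarizes. GPR179 anchors the RGS proteins beside the receptor, nyctalopin (Nyx) and LRIT3 are leucine-rich repeat proteins needed to place TRPM1 at the synapse, and loss of Grm6, Trpm1, Gpr179, Nyx or Lrit3 causes congenital stationary night blindness. Pcp2 is a Go modulator and Prkca, protein kinase C alpha, is a standard stain for rod bipolar cells.

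The authors had scaled every library to a shared total for its fraction, 17096515 to 17097707 for rod TRAP libraries and 17860761 to 17862326 for retina libraries, so totals do not show sequencing depth. Abca4 was at 0.400%, 0.958% and 21.3% of the control mean in Abca4Ko retina replicates 1 to 3 and at 0.349%, 0.653% and 23.5% in Abca4Ko rod TRAP replicates 1 to 3. The libraries labelled Abca4Ko replicate 3 therefore hold more Abca4 message than the other knockout libraries in both fractions, and results without them are given below. Rod markers stood higher in rod TRAP, with 9 of 9 called in each genotype. The summed TPM of 3 lens crystallins ran from 9.6 to 16540 across the retina libraries, and its part in the results was not tested. In bulk RNA, fewer cells of a type and less RNA per cell cannot be told apart.

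In whole retina the 10 genes covered a wide range of levels. On the TPM scale, which allows for transcript length, the control retina order was Pcp2 (772 ± 197, SD, n = 3), Gnao1 (158 ± 47.3), Trpm1 (66.3 ± 18.8), Lrit3 (36.2 ± 9.82), Grm6 (31.7 ± 8.42), Prkca (31.2 ± 13.7), Rgs11 (21.3 ± 7.11), Rgs7 (20.3 ± 5.16), Gpr179 (17.7 ± 6.33) and Nyx (4.10 ± 2.01). Neighbours from Lrit3 down to Gpr179 overlapped in their replicate values, while Pcp2, Gnao1 and Trpm1 at the top and Nyx at the bottom were each separated from the next gene. In the retina of Abca4Ko mice the first 4 places were the same, but Trpm1 and Lrit3 now overlapped, and Prkca stood ahead of Grm6 within overlapping values. Rod TRAP had another order: Lrit3 (76.8 ± 2.40) and Prkca (72.2 ± 3.79) led in controls with overlapping values, Gnao1 (24.8 ± 2.27) came next, Pcp2 was at 6.27 ± 1.79, and the other 6 genes had a mean of at most 1.70 TPM.

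**Figure D1:**
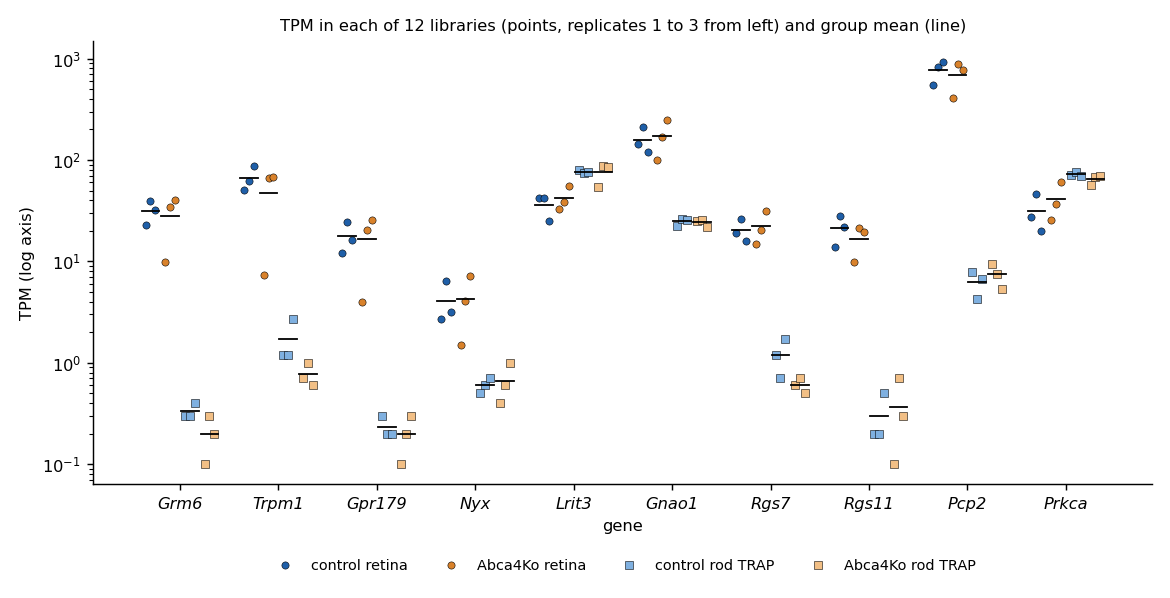
TPM of the 10 genes (log axis) in all 12 libraries, with circles for retina, squares for rod TRAP, blue for control and orange for Abca4Ko, and a line at each group mean of 3 libraries. Pcp2 tops the retina groups and Lrit3 and Prkca top the rod TRAP groups, and the lowest orange circle of each gene is Abca4Ko retina replicate 1.

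The first comparison asks which of these messages were more or less abundant among rod ribosomes than in whole retina. Of the 10 genes, 8 were lower in rod TRAP than in retina in control mice and 2, Lrit3 and Prkca, were higher. All 10 were called by limma at an adjusted p under 0.05, in a comparison where 75.4% of 16286 genes tested were called (36.6% higher and 38.8% lower). Rgs11 entered the fits of both genotypes only through its retina libraries, so its lower direction was set by the filter on low values. After normalization, the 3 rod TRAP libraries did not overlap the 3 retina libraries for any of the 10, which was so for 79.7% of the genes tested. In Abca4Ko mice the same 8 genes were lower and the same 2 higher, all again called and none overlapping, against 64.1% of 16036 genes called (30.4% higher, 33.7% lower) and 69.4% not overlapping. Without Abca4Ko replicate 3 in both fractions, 9 of the 9 members tested were called, beside 5716 of 13150 genes over all. Lrit3 then had a log2 fold change of 1.09 and Prkca 1.10, and Rgs11 missed the filter on low values. A call between these fractions is thus common, and it is the sizes and directions that set the 10 genes apart from each other. Their median log2 fold change was -3.80 in controls and -4.04 in Abca4Ko, beside -0.029 and 0.0044 over all genes tested.

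Grm6, the receptor itself, was close to absent from rod TRAP. Its scaled counts were 1008, 1733 and 1493 in control retina and 10, 20 and 13 in control rod TRAP, and 514, 1444 and 1716 in Abca4Ko retina and 5, 10 and 10 in Abca4Ko rod TRAP. Every rod TRAP library lay far below every retina library. The log2 fold change was -5.35 (SE 0.22, limma adjusted p = 6.2e-10) in controls and -5.57 (SE 0.34, limma adjusted p = 3.0e-07) in Abca4Ko, and mean TPM in rod TRAP was 1.05% and 0.708% of that in retina.

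Trpm1, the channel that the cascade gates, was at 2001, 2712 and 3073 in control retina (scaled counts) against 42, 52 and 71 in control rod TRAP. Abca4Ko retina held 450, 2511 and 2917 and Abca4Ko rod TRAP 15, 37 and 24. The single low retina library, Abca4Ko replicate 1, still had more Trpm1 than any rod TRAP library. Log2 fold changes were -4.69 (SE 0.20, limma adjusted p = 7.1e-10) and -4.99 (SE 0.64, limma adjusted p = 0.00039), the wider error in Abca4Ko going with that one library, without which in both fractions the value was -5.60 (SE 0.20).

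Gpr179, the orphan receptor that tethers RGS proteins, and Nyx, the extracellular nyctalopin, did not move by the same amount. For Gpr179 the scaled counts were 1238, 2289 and 1434 in control retina and 22, 18 and 22 in control rod TRAP, 355, 1868 and 2312 in Abca4Ko retina and 7, 14 and 25 in Abca4Ko rod TRAP. For Nyx they were 169, 366 and 209, then 22, 29 and 31, then 102, 256 and 428, then 17, 29 and 47 in the same order. Gpr179 fell to about the depth of Grm6, with log2 fold changes of -5.16 (SE 0.20) and -5.18 (SE 0.63), whereas Nyx, which is low in retina to begin with, changed by -2.15 (SE 0.24) and -2.11 (SE 0.41). Rod TRAP kept 14.6% of the retina TPM of Nyx in controls and 15.6% in Abca4Ko, but 1.32% and 1.21% of that of Gpr179. The confidence intervals of these genes in controls, -5.59 to -4.73 for Gpr179 and -2.68 to -1.62 for Nyx, did not meet.

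Lrit3 went the other way. Control retina held 1220, 1152 and 718 of its scaled counts and control rod TRAP 1733, 1625 and 1701, with 1029, 1102 and 1449 in Abca4Ko retina beside 1332, 1839 and 1812 in Abca4Ko rod TRAP. On these deposited values the Abca4Ko groups overlapped, since retina replicate 3 (1449) lay above rod TRAP replicate 1 (1332), as they did by TPM (retina up to 55.8, rod TRAP from 54.4), and they separated only after normalization. The log2 fold change was 1.45 (SE 0.17, 95% confidence interval 1.08 to 1.82, limma adjusted p = 5.2e-06) in controls and 1.07 (SE 0.16, interval 0.71 to 1.43, limma adjusted p = 0.00017) in Abca4Ko. Mean TPM in rod TRAP was 2.12 and 1.78 times that in retina.

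Among the signalling proteins, Gnao1, which encodes the alpha subunit of Go, kept a measurable level in rod TRAP. Its scaled counts were 4264, 6198 and 4185 in control retina, 555, 611 and 564 in control rod TRAP, 3584, 5268 and 6625 in Abca4Ko retina and 491, 547 and 519 in Abca4Ko rod TRAP. The 6 rod TRAP values lay close together while the retina values varied more. Log2 fold changes were -2.33 (SE 0.14, limma adjusted p = 1.0e-08) and -2.65 (SE 0.16, limma adjusted p = 3.0e-07), and 15.7% and 14.1% of the retina TPM remained. Go alpha is used by neurons throughout the inner retina and is not particular to ON bipolar cells.

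Rgs7 and Rgs11, the GTPase-activating proteins that turn Go off, were both depleted. The scaled counts of Rgs7 were 362, 429 and 273 in control retina, 16, 14 and 26 in control rod TRAP, 339, 416 and 568 in Abca4Ko retina and 14, 13 and 11 in Abca4Ko rod TRAP. Rgs11 had 277, 466 and 459, then 3, 2 and 9, then 203, 386 and 372, then 1, 7 and 6 in that order. The log2 fold changes of Rgs7 were -3.14 (SE 0.22) and -3.88 (SE 0.22), and those of Rgs11 were -4.46 (SE 0.26) and -4.20 (SE 0.29). With so few scaled counts in rod TRAP, and a pseudocount of 0.5 CPM (scaled counts relative to the library total) in the log2 scale, these values understate the difference. The same applies to Grm6, Gpr179, Trpm1, Nyx and Pcp2. With a pseudocount of 2 in controls, Grm6 was at -4.39, Gpr179 at -4.39, Pcp2 at -4.65 and Trpm1 at -4.29. How close such genes lie to each other thus depends on the pseudocount.

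Pcp2 and Prkca, both used as rod bipolar cell markers, differed in direction between fractions. The scaled counts of Pcp2 were 1256, 1622 and 2032 in control retina, 16, 8 and 15 in control rod TRAP, 988, 1840 and 1563 in Abca4Ko retina and 16, 11 and 7 in Abca4Ko rod TRAP. Prkca had 2561, 3854 and 2054 in control retina, 4661, 5448 and 4790 in control rod TRAP, 2753, 3112 and 4700 in Abca4Ko retina and 4073, 4594 and 4843 in Abca4Ko rod TRAP. The log2 fold changes of Pcp2 were close to those of Grm6, -5.67 (SE 0.22, limma adjusted p = 4.1e-10) and -5.70 (SE 0.25, limma adjusted p = 5.2e-08), and which of the 2 was lower changed with the library left out and, in Abca4Ko, with the scale (0.708% of the retina TPM for Grm6, 1.09% for Pcp2). Prkca had 1.57 (SE 0.17, interval 1.19 to 1.94, limma adjusted p = 2.8e-06) in controls and 0.99 (SE 0.17, interval 0.62 to 1.37, limma adjusted p = 0.00040) in Abca4Ko. The call of Prkca in Abca4Ko ended with the authors' scaling alone (0.45, limma adjusted p = 0.0738) and on log2(TPM + 1) (0.72, limma adjusted p = 0.0559), and on deposited counts and TPM its Abca4Ko fractions overlapped (retina up to 60.4 TPM, rod TRAP from 56.1 TPM).

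**Figure D2:**
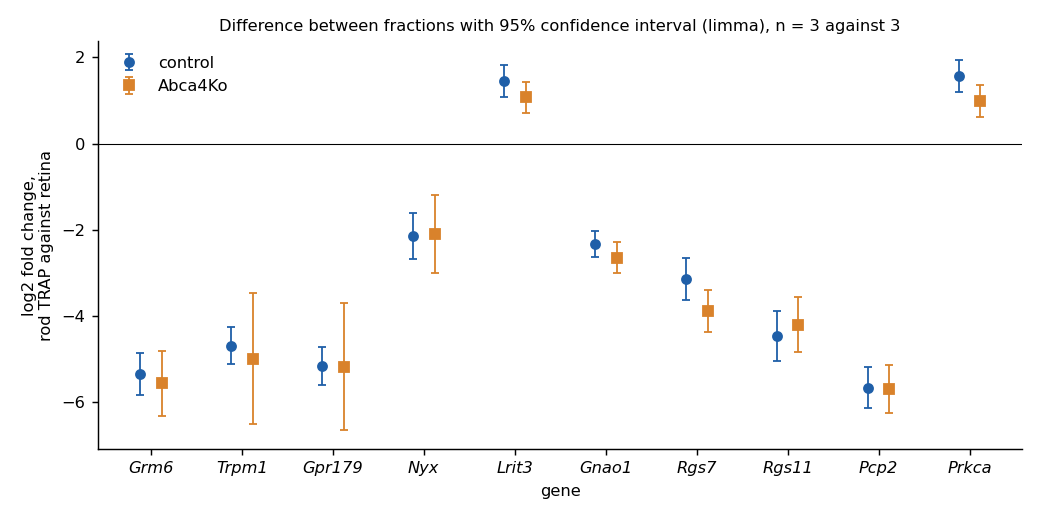
Log2 fold change of rod TRAP against retina for each gene, with 95% confidence intervals, in control (blue circles) and Abca4Ko mice (orange squares). Lrit3 and Prkca lie above 0 in both genotypes, Nyx and Gnao1 lie between -2.11 and -2.65 and the other 6 genes lie below -3.

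The share of each gene left in rod TRAP was set beside that of markers of other cells. A low share is common to these markers, so it cannot tell ON bipolar cells from the other cells listed. Of 30 markers of OFF bipolar, amacrine, horizontal, ganglion, Müller glia and retinal pigment epithelium (RPE) cells, rod TRAP in controls kept between 0.825% and 23.1% of the retina TPM, with a median of 3.22%. Grm6, Gpr179, Trpm1, Pcp2, Rgs11 and Rgs7 had 0.811% to 5.90%, a range that these markers share, apart from Pcp2 just below it. Gnao1 and Nyx were above 28 of the 30 markers, which were at under 10% in controls. Lrit3 and Prkca, at 212% and 231%, stood with the rods: the 9 rod markers had log2 fold changes from 0.88 to 3.98 in controls (median 1.35) and from 0.97 to 3.14 in Abca4Ko (median 1.38). For these 2 genes the measured fraction pattern thus went against a label of ON bipolar cell genes, and from which cells their message came was not tested.

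Other bipolar genes were split in the same manner. Of 9 further bipolar markers, 8 were lower in rod TRAP in both genotypes and 1, Otx2, was higher, with a median log2 fold change of -3.55 in controls and -3.80 in Abca4Ko. Otx2, a homeobox factor that photoreceptors also use, had 167 ± 32.0 TPM in control retina and 331 ± 8.66 in control rod TRAP (log2 fold change 1.33, limma adjusted p = 2.9e-07). Sebox and Vstm2b had log2 fold changes of -2.88 and -4.50 in controls. The 4 OFF bipolar markers were all lower in both genotypes, with -4.94 for the kainate receptor gene Grik1 in controls and -4.95 for Nnat.

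**Figure D3:**
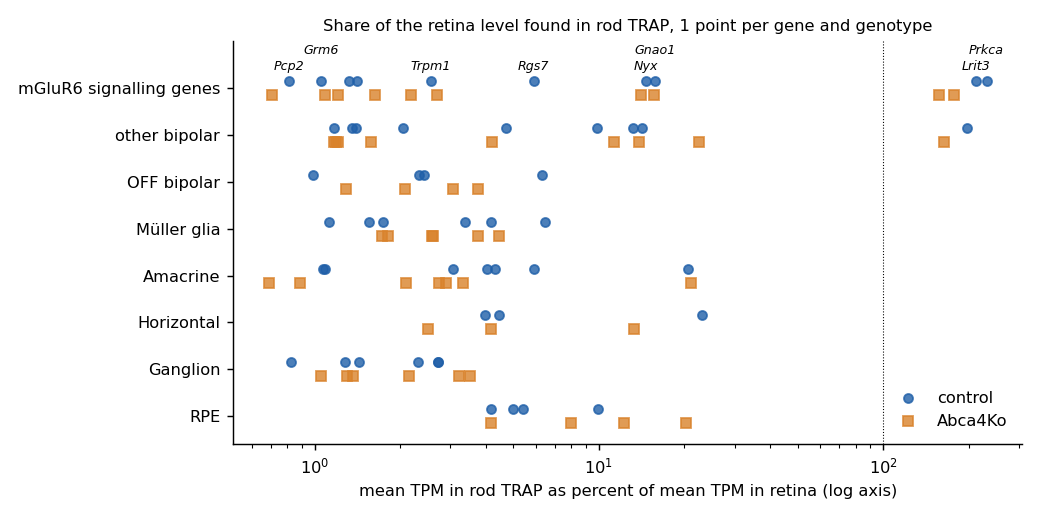
Mean TPM in rod TRAP as a percent of mean TPM in retina (log axis), with 1 point per gene in control (blue) and Abca4Ko mice (orange), for the 10 mGluR6 signalling genes and markers of other cells. Most markers lie between 1% and 10%, and among the mGluR6 genes Nyx and Gnao1 lie near 15% and Lrit3 and Prkca above 100%.

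A list of 8 other genes was set beside the cascade, and it includes partners of the rod RGS9, so not all are particular to the cascade. In controls 5 were higher in rod TRAP (Gnb5, Lrit1, Lrit2, Rgs9bp and Ric8b) and 3 lower (Gng13, Gnb3 and Cabp5). Abca4Ko mice had the same calls apart from Gnb3, which was not called (-0.43, limma adjusted p = 0.18). Gng13, the gamma subunit paired with Go in ON bipolar cells, had 605 ± 164 TPM in control retina and 5.13 ± 2.44 in control rod TRAP, a log2 fold change of -5.62 that is close to that of Pcp2. Gnb3, the beta subunit, which cones also use, was at 323 ± 12.6 and 164 ± 44.6 TPM (-0.68, limma adjusted p = 0.0030). Gnb5, the obligate partner of RGS7 and RGS11 and also of the rod RGS9, rose from 813 ± 65.1 to 1432 ± 88.7 TPM (1.14), and Rgs9bp, the RGS9 anchor, from 166 ± 67.3 to 550 ± 24.3 TPM (2.13).

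Related families showed where Grm6, Gnao1 and the RGS genes stood among their kin. Of 7 other metabotropic glutamate receptors 6 were tested, of which 5 were lower in rod TRAP in both genotypes and Grm8 was higher. Grm8, which acts as a presynaptic receptor in photoreceptors, had 5.63 ± 1.42 TPM in control retina and 24.2 ± 1.29 in control rod TRAP (2.31, limma adjusted p = 3.1e-08), while Grm2, Grm4 and Grm7 had -4.15, -3.98 and -2.41. Of 6 other Gi/o alpha subunits, Gnat1, Gnai3 and Gnaz were higher and Gnai1, Gnai2 and Gnat2 lower in both genotypes. The rod transducin gene Gnat1 was at 17258 ± 1149 and 31232 ± 212 TPM in control retina and rod TRAP (1.17), and Gnai2 was at 221 ± 46.8 and 5.40 ± 1.18 TPM (-4.93). Among the R7 RGS genes besides Rgs7 and Rgs11, the phototransduction regulator Rgs9 was higher (2.84 in controls, 2.09 in Abca4Ko) and Rgs6 lower (-2.43 and -2.95).

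On the rod side of the synapse, 5 genes whose products face or organize the mGluR6 complex were read for comparison with Lrit3. Elfn1, the trans-synaptic ligand of mGluR6, Egflam (pikachurin), Cacna1f and Cacna2d4 were higher in rod TRAP in both genotypes, and Dag1 was not called in either. Elfn1 had 71.1 ± 9.18 TPM in control retina and 104 ± 0.755 in control rod TRAP (0.87, limma adjusted p = 8.2e-06) and Egflam 141 ± 6.68 and 317 ± 28.1 (1.49, limma adjusted p = 2.1e-07). The fold change of Lrit3 in controls, 1.45, was near that of Egflam.

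The fraction values rest on how the fractions were set against each other. With the authors' scaling alone, the log2 fold change of the median gene moved from -0.029 to -0.62 in controls and from 0.0044 to -0.49 in Abca4Ko, and the calls became 3415 higher and 9549 lower in controls (from 5968 and 6317) and 2282 higher and 7814 lower in Abca4Ko (from 4872 and 5408). On that scale Lrit3 had 0.81 and 0.54 and Prkca 0.92 and 0.45, all still above 0, and the other 8 genes kept their calls.

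Since 8 of the genes were low together in rod TRAP and Lrit3 and Prkca were not, their promoters were read from RefSeq (build GRCm38.p6; the labels name GRCm39 for the data, so these positions are those of the older build). Windows of 250 bases before to 50 after a start matched 9 of the 10 genes, all but Rgs11, with 13 windows in all. The letters TAATCC, which the homeodomain factors CRX and OTX2 are known to bind, were searched on both strands, as were TAATTA and CATATG. The share of all 32851 windows holding each was 7.06%, 5.29% and 3.92%. TAATCC was in 1 of the 2 windows of Trpm1, TAATTA in 1 of the 4 windows of Pcp2, and CATATG in none of the 9 genes. The Trpm1 window printed below was taken because it holds TAATCC, so its capitals follow from that choice. The 250 bases before the start are shown for the receptor and channel genes, low in rod TRAP, and for the 2 genes that were high there, with capitals marking TAATCC read on either strand. They lie at chr11:50850435-50850684 (+) for Grm6, chr7:64153585-64153834 (+) for Trpm1, chr3:129804137-129804386 (-) for Lrit3 and chr11:108343889-108344138 (-) for Prkca.
Grm6: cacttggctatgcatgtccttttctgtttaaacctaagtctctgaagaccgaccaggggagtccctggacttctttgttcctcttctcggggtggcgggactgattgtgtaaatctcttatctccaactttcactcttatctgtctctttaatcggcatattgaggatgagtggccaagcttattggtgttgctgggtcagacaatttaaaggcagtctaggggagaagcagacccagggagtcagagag
Trpm1: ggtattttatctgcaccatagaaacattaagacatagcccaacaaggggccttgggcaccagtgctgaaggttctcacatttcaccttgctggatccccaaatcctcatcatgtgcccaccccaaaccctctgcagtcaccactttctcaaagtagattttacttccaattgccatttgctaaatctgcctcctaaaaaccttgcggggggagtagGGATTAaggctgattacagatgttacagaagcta
Lrit3: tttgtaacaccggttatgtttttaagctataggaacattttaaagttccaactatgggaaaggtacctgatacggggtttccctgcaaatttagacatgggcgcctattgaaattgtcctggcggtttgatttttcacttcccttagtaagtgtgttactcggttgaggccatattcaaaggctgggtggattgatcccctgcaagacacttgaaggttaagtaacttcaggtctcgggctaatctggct
Prkca: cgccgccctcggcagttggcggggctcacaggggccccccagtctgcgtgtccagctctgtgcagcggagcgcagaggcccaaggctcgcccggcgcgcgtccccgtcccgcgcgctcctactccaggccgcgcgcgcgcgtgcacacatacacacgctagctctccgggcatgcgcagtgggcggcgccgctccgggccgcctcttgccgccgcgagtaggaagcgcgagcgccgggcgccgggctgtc
The capitals in Trpm1 are GGATTA, which is TAATCC on the other strand, at 29 to 34 bases before the start used for the printed window. Over the whole windows of 300 bases, which run past the printed stretch, Prkca was 75.3% G and C with 42 CG pairs, beside 46.3% and 9 for Lrit3, 49.7% and 4 for Grm6 and 48.3% and 2 for Trpm1, and medians of 52.7% and 7 over all windows. Of the 3 searched motifs, none was in the printed windows of Grm6, Lrit3 and Prkca.

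The second comparison asks whether loss of Abca4 changed these messages in rods or in whole retina. No member passed the test in either fraction. In rod TRAP 9 of the 10 genes were tested, since Rgs11 had under 10 scaled counts in every library, and 0 were called by limma, beside 1.13% of 13104 genes (0.733% higher and 0.397% lower, 148 called in all, and 1368 at an unadjusted p under 0.05). In retina all 10 were tested and 0 were called, beside 0.106% of 16964 genes (0.0884% higher and 0.0177% lower, 18 called in all, and 2034 at an unadjusted p under 0.05). Among the members, Trpm1 in rod TRAP had an unadjusted p under 0.05 and no member did in retina. Median log2 fold changes over the members were -0.14 in rod TRAP and -0.12 in retina, beside 0.0016 and -0.022 over all genes tested.

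Trpm1 in rod TRAP was the member whose genotypes stood furthest apart. Its scaled counts of 42, 52 and 71 (control) and 15, 37 and 24 (Abca4Ko) correspond to 1.2, 1.2 and 2.7 against 0.7, 1.0 and 0.6 TPM. The groups did not overlap on either scale, as was so for 17.6% of all genes tested. The log2 fold change was -0.93 (SE 0.26, limma adjusted p = 0.17), and -0.91 (SE 0.29, limma adjusted p = 0.26) without Abca4Ko replicate 3. It ran from -1.15 to -0.57 over all alternatives with limma adjusted p from 0.084 to 0.79. Trpm1 in rod TRAP was at 2.56% of its retina TPM in controls and 1.63% in Abca4Ko, so the difference rests on few counts. In the same comparison the 6 cone markers had log2 fold changes from 0.24 to 0.60. By limma 0 of them were called and all 6 had an unadjusted p under 0.05. The 5 amacrine markers tested were all below 0 (median -0.32), as were the 1 OFF bipolar and 1 horizontal marker tested. Above 0 were 6 of 6 Müller glia, 5 of 6 other bipolar, 4 of 6 ganglion and 2 of 2 RPE markers. None of these was called, and the part of any of these markers in the Trpm1 value was not tested.

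Gnao1 (-0.14, SE 0.091) also did not overlap between genotypes in rod TRAP, by scaled counts of 555, 611 and 564 in control against 491, 547 and 519, though on the TPM scale it did. Grm6 (-0.43, SE 0.25) shared a value of 10 scaled counts between the genotypes and was parted only after normalization. The other 6 genes tested overlapped, with log2 fold changes from -0.36 (Gpr179) to 0.080 (Nyx). Abca4Ko rod TRAP replicate 1 was the lowest library of its group for 8 of the 10 genes, and without it Gpr179 was at -0.11, Grm6 at -0.30 and Nyx at 0.33. Without Abca4Ko rod TRAP replicate 3 Gpr179 was at -0.63 and Nyx at -0.19. Grm6 was at -0.57 without control rod TRAP replicate 1 and at -0.26 without control rod TRAP replicate 2. For the 2 genes with high rod TRAP levels the intervals were narrow, -0.25 to 0.19 for Lrit3 and -0.32 to 0.056 for Prkca.

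In retina every member overlapped between the genotypes, while 19.9% of genes tested did not. Trpm1 had the lowest value (-0.77, SE 0.63, limma adjusted p = 0.60), followed by Gpr179 (-0.46, SE 0.63), Grm6 (-0.34, SE 0.34), Rgs11 (-0.33, SE 0.26), Pcp2 (-0.18, SE 0.23) and Nyx (-0.059, SE 0.40). Gnao1 (0.062, SE 0.20), Lrit3 (0.24, SE 0.21), Rgs7 (0.30, SE 0.21) and Prkca (0.33, SE 0.23) were above 0. Without Abca4Ko retina replicate 1 the values of Trpm1, Gpr179, Grm6, Nyx and Pcp2 became 0.0068, 0.30, 0.12, 0.41 and 0.0025. Without Abca4Ko retina replicate 3 they were -1.19, -0.90, -0.61, -0.45 and -0.19 in that order, all further below 0 than with every library kept. Single control libraries also turned a sign, with Nyx at 0.21 without control replicate 2 and Pcp2 at 0.020 without control replicate 3. Without replicate 1 of both genotypes, Trpm1 was at -0.15, Grm6 at -0.087 and Pcp2 at -0.15, while Gpr179 was at 0.14 and Nyx at 0.20. The sign of these 5 values thus depends on which libraries are kept, and the interval of Trpm1 over all 6 libraries, -2.29 to 0.75, spans large differences in either direction.

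**Figure D4:**
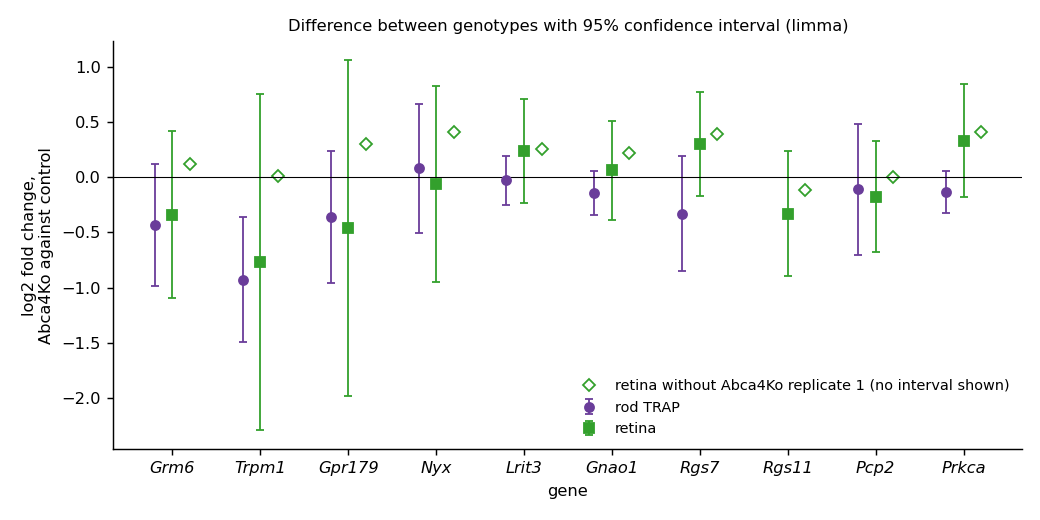
Log2 fold change of Abca4Ko against control with 95% confidence intervals in rod TRAP (purple circles, Rgs11 not tested) and retina (green squares), and the retina value without Abca4Ko replicate 1 (open diamonds). The only interval that lies clear of 0 before adjustment is that of Trpm1 in rod TRAP, and the diamonds of Trpm1 and Pcp2 lie at about 0.

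Abca4Ko retina replicate 1 was the lowest library of its group for all 10 genes, but not by one common factor. Against the mean of the other 5 retina libraries, its scaled counts were 17.0% for Trpm1, 19.4% for Gpr179, 34.8% for Grm6, 35.7% for Nyx, 51.8% for Rgs11, 59.4% for Pcp2, 67.5% for Gnao1, 82.8% for Rgs7, 84.5% for Prkca and 91.2% for Lrit3. The median over all 16937 genes with unshared symbols was 85.5%, and 1.52% of them were at or below Trpm1 and 1.90% at or below Gpr179. Rgs7, Prkca and Lrit3 were thus near the middle of all genes, and the receptor, channel, Gpr179 and Nyx near the bottom. Markers of other cells moved in this library too, and their part in the result was not tested: the summed TPM of 9 rod markers was 110583 beside 93873 and 83187 in Abca4Ko retina replicates 2 and 3, that of 7 amacrine markers 253 beside 571 and 645, that of 6 ganglion markers 607 beside 895 and 922, that of 3 horizontal cell markers 12.4 beside 18.3 and 27.5, that of 6 Müller glia markers 2704 beside 4630 and 4415 and that of 4 OFF bipolar markers 54.7 beside 107 and 121. In control retina the rod sums ran from 99265.5 to 111614, a range that holds the 110583 of this library. The other sums of this library lay below those of control retina. These were 380.5 to 621 for amacrine, 889 to 969 for ganglion and 13.9 to 24.3 for horizontal markers. For Müller glia they were 3076.5 to 5049 and for OFF bipolar markers 76.0 to 90.4. By scaled count, the horizontal markers were at 17.4% to 82.5% of the mean of the other 5 retina libraries, the 6 cone markers at 70.0% to 84.3% and the 4 RPE markers at 34.5% to 268%. The 9 other bipolar markers summed to 338 beside 546 and 636, and to 411 to 642 in control retina. No marker of these lists was at 0 in all 3 libraries of a retina group. The median of these 9 markers was at 46.8% of the other 5 libraries, with a range of 41.3% to 115%, so Trpm1, Gpr179, Grm6 and Nyx lay below each of them.

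The control retina libraries differed among themselves as well. Control replicate 3 held more Trpm1 (145%), Pcp2, Rgs11 and Grm6 than the mean of the other 5 retina libraries and less of the other 6 genes, with Prkca at 60.5% and Lrit3 at 60.3%. Control replicate 2 was above 100% in all 10 genes and control replicate 1 below it in 9, Lrit3 being the exception.

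**Figure D5:**
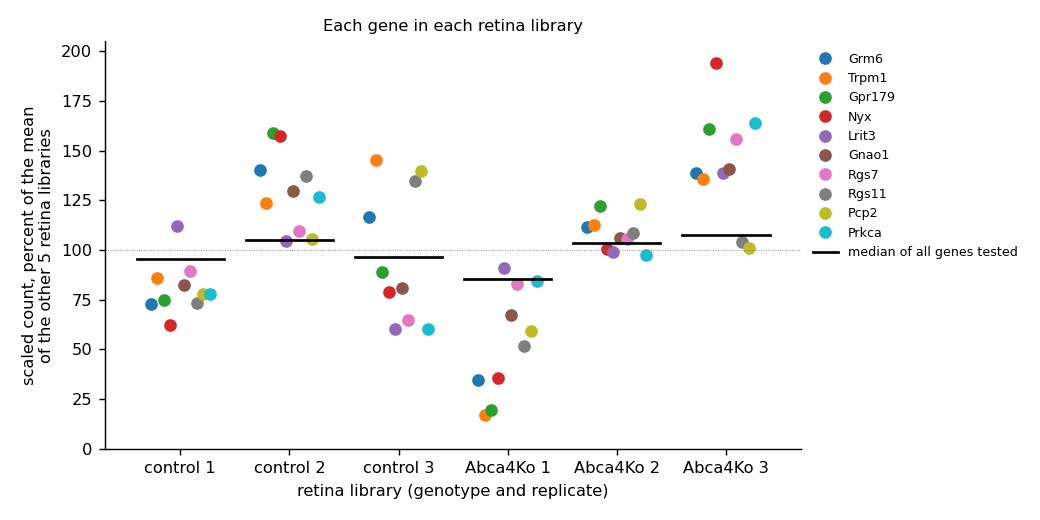
Scaled count of each gene in each retina library as a percent of the mean of the other 5 retina libraries, with a black line at the median of all genes tested. Abca4Ko replicate 1 has Trpm1 and Gpr179 under 20%, and Lrit3, Rgs7 and Prkca close to the line.

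Whether genotype changed the gap between the fractions was tested as an interaction over all 12 libraries. Of the 10 genes 0 were called by limma, beside 0.00579% of 17273 genes (1 called, and 1952 at an unadjusted p under 0.05). Rgs7 had the lowest value, -0.67 (SE 0.31, unadjusted p = 0.047 and adjusted p = 0.43 by limma), followed by Prkca (-0.49, SE 0.26, limma adjusted p = 0.49) and Lrit3 (-0.29, SE 0.25). The intervals of Trpm1 (-1.85 to 1.42) and Gpr179 (-1.49 to 1.61) leave room for large differences, since they include the low retina library.

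Within the same lists of related genes, genotype gave no call by limma in either fraction. Of the 8 other genes listed with the cascade, 0 of 7 tested were called in rod TRAP and 0 of 8 in retina. In the same order, calls were 0 of 5 and 0 of 6 for the Gi/o subunits and 0 of 2 and 0 of 7 for the glutamate receptors. They were 0 of 6 and 0 of 9 for the other bipolar markers and 0 of 5 and 0 of 5 for the synaptic partners. At an unadjusted p under 0.05 there were 1 gene listed with the cascade and 1 Gi/o subunit in rod TRAP. In retina there were 2 and 1, and none in the other 3 of these lists. Lrit3 shares chromosome 3 with Abca4, so the genes near it were also counted. Within 2 Mb of Lrit3, 0 of 20 genes were called between genotypes in rod TRAP and 0 of 28 in retina (5 and 6 at an unadjusted p under 0.05). Within 2 Mb of Trpm1, on chromosome 7, 2 of 21 were called higher in Abca4Ko rod TRAP and 0 of 26 in retina. These were Pcsk6, a proprotein convertase (4.14, SE 0.22, limma adjusted p = 9.1e-06), and Ndn, the imprinted gene of necdin (0.66, SE 0.11, limma adjusted p = 0.018), and their relation to Trpm1 was not tested.

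Genes whose pattern over the 12 libraries was close to that of Grm6, by root mean square difference of centred log2(CPM + 0.5) values among 9763 genes, included Kcna5 (0.19), Cacna1g (0.21), Iqsec3 (0.21) and Aatk (0.22). Of the cascade, Gpr179 ranked 79 in likeness to Grm6 (0.36), Pcp2 151 (0.46), Trpm1 175 (0.48) and Rgs11 431 (0.69). Gnao1 was most like Pip5k1b (0.12), Arsb (0.16), Septin8 (0.16), Adarb1 (0.17) and Pmepa1 (0.18), and Nyx ranked 307 (0.41) and Rgs7 510 (0.51) in likeness to it. Because 6 of the 12 libraries are from each fraction, a close match by this measure has a like fold change between fractions by construction. Kcna5 had -5.20 and -5.67 in the genotypes and Pip5k1b -2.68 and -2.75, beside -5.35 and -5.57 for Grm6 and -2.33 and -2.65 for Gnao1.

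Exons of 6 members overlap those of a gene on the other strand in the GENCODE M21 annotation, and whether reads were counted by strand is not given in the sources used here. The overlapping genes are Gm12660 for Grm6, Gm44722 for Trpm1, Arhgdig for Rgs11, 4930488L21Rik for Gnao1, Pet100 for Pcp2 and Apoh for Prkca. Of these Pet100 reached 50.1 TPM, Arhgdig 17.1, Gm12660 6.8 and Apoh 3.0 in their highest library, and Gm44722 was listed at 0 in all. Pet100 had 44.2 TPM in control retina and 26.2 in control rod TRAP where Pcp2 was at 6.27.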

How the data were processed

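RNA from total retinal lysate (5 ng) and rod TRAP (10 ng) of cycloheximide-perfused mice was made into low-input cDNA libraries. The labels name CASAVA 1.8.2, HISAT2, DESeq2, edgeR and GRCm39 without stating their roles. The authors deposited scaled counts, a score made from read counts by bringing libraries of a fraction to 1 total and rounding, as the equal totals, and gaps or doubled values among low counts in most libraries, show, and TPM to 1 decimal. Because these scores are not raw counts, a count test was replaced by limma 3.58.1 (trend, robust; R 4.3.3) on log2(CPM + 0.5) after TMM scaling (trims 0.3 and 0.05). A gene entered a fit when 3 of its libraries had at least 10 scaled counts, and a call is a Benjamini-Hochberg adjusted p under 0.05 over all genes tested, two-sided. Genotypes were compared within each fraction and fractions within each genotype, from 6 libraries each, and the interaction from 12. Errors are limma's standard errors (SE) or the SD of 3 libraries. The fit was tested on simulated counts with the same dispersion in all libraries. That test did not cover changes in genes of low mean count or an outlying library such as Abca4Ko retina replicate 1. Deviations from the group means correlated between rod TRAP and retina libraries of 1 number (r 0.169 to 0.448 in the 6 pairs), and a replicate block was an alternative, beside other scalings, filters, pseudocounts and left-out libraries. The 10 genes, lists and tests were chosen with earlier results of these data known. From each list, single values could be given for the 4 genes of highest TPM in control retina, while calls could name any gene of a list. Of the other genes, the 5 most like Grm6 and the 5 most like Gnao1 could be named, and some genes that these rules select are not reported here. Other tools were Python 3.11.15, numpy 2.4.6, pandas 2.3.3 and matplotlib 3.10.9.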

Additional observations from a re-analysis of the deposited data

How the results depend on the processing

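No member was called under any alternative in the genotype or interaction comparisons. All 10 were called between fractions in controls, and 9 of 9 tested when a retina library was left out, since Rgs11 then missed the filter. In Abca4Ko the same held except that Prkca was lost with the authors' scaling alone and on log2(TPM + 1), which left 9 called. Over all genes, the fits without control retina replicate 1, 2 or 3 called 9050 of 13446, 9222 of 13451 and 9731 of 13471. Those without Abca4Ko retina replicate 1, 2 or 3 called 7630 of 13417, 6595 of 13396 and 7060 of 13405. In Abca4Ko the authors' scaling alone called 10096 of 16036 genes and log2(TPM + 1) 7999 of 15761. The replicate block changed no member's call, and the correlation of the fractions gives it a ground only within a genotype. Between genotypes, libraries of 1 number had r of 0.0342, -0.261 and -0.412 in retina. In rod TRAP these were -0.0741, 0.0118 and -0.116. The block moved the count of calls over all genes in retina between genotypes from 18 to 46, without such a ground. That count was also 33 without a filter, 32 on TPM and 62 in 1 fit of all libraries, and it was 1 without Abca4Ko replicate 1, 4 without Abca4Ko replicate 2 and 1 without control replicate 3. In rod TRAP it was 148, but 43 on TPM, 594 without Abca4Ko replicate 1 and 36, 30 and 33 without control replicates 1, 2 and 3. The causes were not tested. Signs that turned belonged to values that were not called. On log2(TPM + 1), Pcp2 between genotypes in rod TRAP was 0.22, and Grm6 and Trpm1 in the interaction were 0.19 and 0.38, as they were 0.11 and 0.097 with a pseudocount of 2. With libraries left out, the rod TRAP genotype values ran from -0.088 to 0.079 for Lrit3, -0.30 to 0.065 for Pcp2 and -0.19 to 0.33 for Nyx. In retina they ran from -0.61 to 0.12 for Grm6, -0.34 to 0.020 for Pcp2, -1.19 to 0.0068 for Trpm1, -0.45 to 0.41 for Nyx, -0.90 to 0.30 for Gpr179 and -0.082 to 0.22 for Gnao1. In the interaction they ran from -0.62 to 0.12 for Grm6, -1.02 to 0.20 for Trpm1, -0.16 to 0.23 for Pcp2, -0.36 to 0.50 for Nyx and -0.73 to 0.49 for Gpr179. Without Abca4Ko replicate 3 in both fractions Grm6 was 0.043 and Trpm1 0.21, and without replicate 1 Pcp2 was -0.35, Nyx -0.077 and Gpr179 -0.44. In retina without replicate 1 of both genotypes, Nyx was 0.20 and Gpr179 0.14, while Trpm1 (-0.15), Grm6 (-0.087) and Pcp2 (-0.15) stayed below 0. With CPM in place of TPM, the order of the 4 group means was the same in 8 of 10 genes, and in Rgs11 and Pcp2 the rod TRAP groups changed places. The alternatives without Abca4Ko replicate 1 or 3 in both fractions, and without replicate 1 of both genotypes in retina, were chosen after seeing the data. Read depth before scaling was not recovered, and no counting interval is given.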
